A study of Mus musculus with 6 samples.

Results

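Transcripts of 7 cytokine genes of the interleukin-1 (IL-1) family were followed with and without IL-33 in Raw 264.7, a line of mouse monocytes and macrophages. The genes were Il1f9 and Il1f6, which encode IL-36 gamma and IL-36 alpha, Il1a and Il1b for IL-1 alpha and IL-1 beta, Il1rn for the IL-1 receptor antagonist, Il18, and Il33 itself. They were selected by gene symbol, as 7 of 22180 genes tested, and each was read by 1 probe set. For a gene with several probe sets the one with the highest mean over all 6 arrays would have been used, but no member had more than 1. The family was chosen with its differences in these arrays already known, so the values below describe it, and their adjusted p-values say where each gene stood among all genes rather than giving independent support.

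The series held 3 arrays labelled IL-33, from cells given 50 ng/ml of IL-33 in medium with 2% serum, and 3 arrays labelled PBS, from cells in the same medium without it. Both groups had been grown in 10% serum and starved first. How long the cells were treated is not stated in the labels. Whether replicates were separate cultures is not stated either, so the p-values cover the spread between samples alone, and that spread may be technical. Groups follow the sample titles, but the array names in the sample descriptions carry the letters IL on the arrays titled PBS and the letter P on those titled IL-33. If the titles were exchanged, every direction below would turn.

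Array medians lay between 5.31 and 5.36 and array maxima between 13.62 and 13.66 on the log2 scale of the deposited values. Precision is set by the 3 arrays a group, with a standard error of 0.073 (log2) for the median gene. Of 10 macrophage markers, 9 lay at or above the median gene mean of 5.75, among them Cd68, Lyz2 and Csf1r. Only 1 passed, the IgG receptor gene Fcgr1, higher by a log2 difference of 0.49 (adjusted p = 0.0448, limma). Adgre1, the other marker with an unadjusted p under 0.05, differed by -0.29 (adjusted p = 0.114, limma). All 3 values labelled IL-33 lay below those labelled PBS in 3 of the 10 markers and above in 3, against 10.1% and 10.3% of all genes. Of all genes, 0.591% passed and 13.2% had an unadjusted p under 0.05 (limma). Of 38 measured markers of epithelium, fibroblasts, endothelium, mast cells and lymphocytes, 0 passed (limma) and 1 had an unadjusted p under 0.05, and the mean level of each of these 5 lists lay between 4.07 and 5.59 in arrays labelled IL-33 and between 3.996 and 5.61 in arrays labelled PBS. Of 8 neutrophil markers, S100a8 and Mmp8 were lower, by log2 differences of -1.24 and -0.95 (adjusted p = 0.00935 and 0.0351, limma). Of the 6 fits without an array, S100a8 passed in 4, Mmp8 in 1 and Fcgr1 in 0. The mean level of that list was 4.81 to 4.93 in arrays labelled IL-33 and 5.14 to 5.16 in arrays labelled PBS. The 6 other neutrophil markers, Ly6g, Camp, Ltf, Ngp, Mpo and Cxcr2, did not pass and had group means of 3.81 to 5.67, below the median gene mean. The part of these markers in the cytokine differences was not tested, and in bulk RNA fewer cells of a type and less RNA per cell cannot be told apart.

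IL-1 alpha and IL-1 beta bind the same receptor, which pairs with an accessory chain and signals through the adaptor MyD88 and IRAK kinases to NF-kB and MAP kinases, while the IL-1 receptor antagonist occupies that receptor without signalling. The IL-36 cytokines act in the same way through a receptor of their own and share the accessory chain, as does IL-33. IL-1 beta and IL-18 are made as precursors that caspase-1 cleaves in the inflammasome, whereas IL-1 alpha and IL-33 can act as alarmins released from damaged cells. Macrophages are a main source of IL-1 beta, IL-1 alpha and the antagonist, and epithelial cells of the IL-36 cytokines and of IL-33.

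The promoter windows of 3 of the 4 genes that fell are shown because these genes moved in the same direction. For Il1f6, which fell too, no window was analysed here. Each runs from 250 bases before the transcribed start to 50 bases after it on the gene's strand, taken from RefSeq (GRCm38.p6). The windows are chr2:24186226-24186525 (+ strand) for Il1f9, chr2:129309923-129310222 (- strand) for Il1a and chr2:129371090-129371389 (- strand) for Il1b. Capitals mark matches, on either strand, to any of 6 motifs. These were TATAAA for a TATA box, TGANTCA for AP-1, GAGGAA for PU.1, GGGNNTTNC for NF-kB, TTGCNNAA for C/EBP and GAAANNGAA for the interferon response element.
Il1f9: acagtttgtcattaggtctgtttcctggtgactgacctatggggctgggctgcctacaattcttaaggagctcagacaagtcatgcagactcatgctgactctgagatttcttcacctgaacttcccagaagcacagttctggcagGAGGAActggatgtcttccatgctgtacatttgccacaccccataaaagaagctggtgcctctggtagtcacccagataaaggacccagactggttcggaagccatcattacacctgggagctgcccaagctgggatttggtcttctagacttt
Il1a: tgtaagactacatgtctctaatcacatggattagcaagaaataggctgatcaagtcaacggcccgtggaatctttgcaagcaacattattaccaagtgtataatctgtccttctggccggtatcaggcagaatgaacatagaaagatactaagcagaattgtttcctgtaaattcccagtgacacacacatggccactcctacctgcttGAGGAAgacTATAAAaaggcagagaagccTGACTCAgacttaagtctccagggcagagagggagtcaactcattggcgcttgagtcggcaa
Il1b: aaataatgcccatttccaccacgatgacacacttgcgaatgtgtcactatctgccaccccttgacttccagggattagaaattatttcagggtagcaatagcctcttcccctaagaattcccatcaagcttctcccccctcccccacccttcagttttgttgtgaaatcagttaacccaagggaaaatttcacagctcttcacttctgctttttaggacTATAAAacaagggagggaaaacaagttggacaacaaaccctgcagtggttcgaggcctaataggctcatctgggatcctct

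Il1a and Il1b each held TATAAA on the transcribed strand just before the start, from base -32 to -27 in Il1a and from base -31 to -26 in Il1b, counted from the first transcribed base as 0. A TATAAA lying wholly within 40 to 20 bases before the start occurred in 1.91% of 32851 promoter windows of the same length. These 32851 windows do not cover every chromosome. Of the other members, Il33 held such a TATAAA in 1 of its windows. Il1a also held an AP-1 match at -12 to -6 and a PU.1 match at -41 to -36, and Il1f9 a PU.1 match at -104 to -99. Members that did not pass held them too, with an AP-1 match in Il1rn and PU.1 matches in Il33. The AP-1 and PU.1 letters were found in 7.81% and 28.3% of the 32851 windows. The letters searched for NF-kB, C/EBP and the interferon response element were in none of the 3 windows shown. They were in 15.2%, 10.8% and 8.56% of the 32851 windows. Among the 6 members with a window, the NF-kB letters matched in Il1rn, at the same site of 2 overlapping windows, and in Il18. No matches overlapped in the windows shown, and a match or its absence describes only the letters of these windows.

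Of the 7 genes, 4 fell in the arrays labelled IL-33 and 0 rose, at an adjusted p under 0.05 over all genes (limma, Benjamini-Hochberg). Over all genes 0.316% were called lower and 0.275% higher. The IL-36 genes Il1f9 and Il1f6 were 3.47-fold and 2.08-fold lower, and the IL-1 agonist genes Il1a and Il1b were 1.91-fold and 1.46-fold lower. The antagonist gene Il1rn, Il18 and Il33 did not pass. At an unadjusted p under 0.05 all members but Il33 did, with Il18 the 1 above 0, as did 13.2% of all genes. The median log2 difference of the 7 genes was -0.55, against -0.0051 over all genes. In 5 members all 3 values labelled IL-33 lay below all 3 labelled PBS, and in 1 member all 3 lay above, and over all genes this held for 10.1% and 10.3%.

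**Figure D1:**
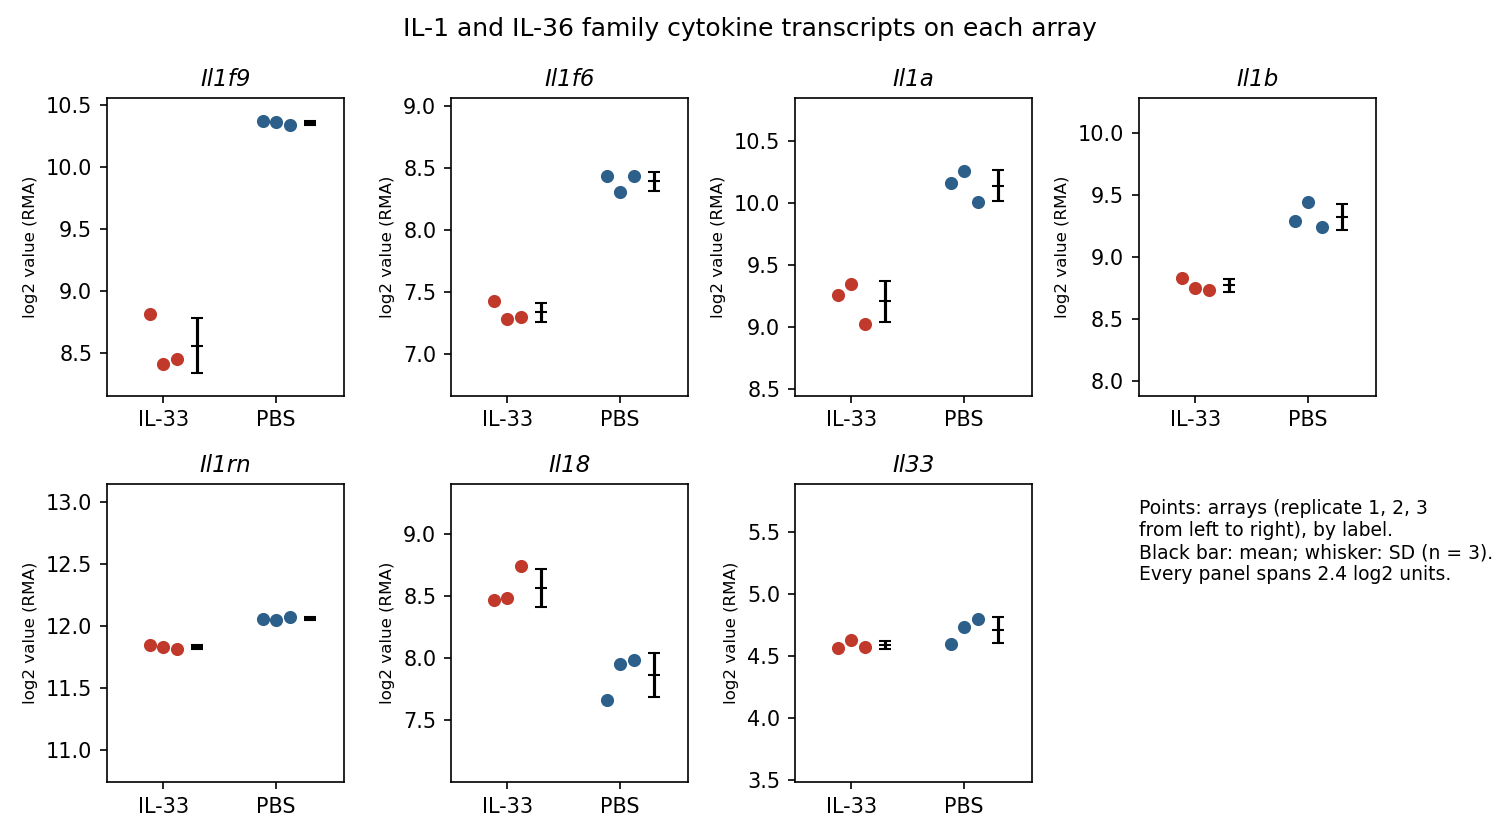
Log2 values of the 7 cytokine genes on each array, with arrays labelled IL-33 on the left of each panel and arrays labelled PBS on the right; every panel spans the same height in log2 units, points are arrays, and bars give the mean and SD (n = 3). The groups are apart for Il1f9, Il1f6, Il1a, Il1b, Il1rn and Il18, with Il18 alone higher in the arrays labelled IL-33, and overlap for Il33.

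Il1f9 had log2 values of 8.81, 8.41 and 8.45 in the arrays labelled IL-33 and of 10.37, 10.36 and 10.33 in those labelled PBS. The arrays labelled PBS were nearly alike, while replicate 1 labelled IL-33 stood above the other two, and the groups were 1.52 log2 units apart at their nearest values. The fall was 3.47-fold, with a 95% confidence interval of 2.92 to 4.14 and an adjusted p of 0.00351 (limma). It ranked first among the falls of all genes.

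Il1f6, which lies next to Il1f9 on chromosome 2 and encodes another agonist of the same receptor, had log2 values of 7.42, 7.28 and 7.29 in the arrays labelled IL-33. Its values were 8.44, 8.30 and 8.43 in those labelled PBS. The groups were 0.88 log2 units apart, against a spread of at most 0.14 within either. Il1f6 was 2.08-fold lower, with an interval of 1.87 to 2.32 and an adjusted p of 0.00372 (limma). Il1f9 and Il1f6 passed whichever array was left out, with adjusted p of 0.000724 to 0.0323 and of 0.00783 to 0.0362 (limma).

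Il1a had log2 values of 9.25, 9.35 and 9.03 in the arrays labelled IL-33 and of 10.16, 10.26 and 10.00 in those labelled PBS. In both groups replicate 3 was the lowest and replicate 2 the highest. The fall of 1.91-fold had an interval of 1.62 to 2.25 and an adjusted p of 0.0183 (limma). Il1b had values of 8.83, 8.75 and 8.73 in the arrays labelled IL-33 and of 9.28, 9.44 and 9.24 in those labelled PBS. The groups did not overlap, with a gap of 0.41 log2 units, and the fall of 1.46-fold had an interval of 1.31 to 1.64 and an adjusted p of 0.0285 (limma). Leaving out any 1 of the 6 arrays ended both calls, with adjusted p of 0.052 to 0.11 for Il1a and 0.0602 to 0.153 for Il1b, while the log2 differences stayed between -1.0 and -0.84 and between -0.59 and -0.49.

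Il1rn, the natural brake on both IL-1 agonists, had log2 values of 11.85, 11.83 and 11.81 in the arrays labelled IL-33 and of 12.05, 12.05 and 12.07 in those labelled PBS. All 3 values labelled IL-33 were below the others, by a gap of 0.20. The log2 difference of -0.23 (95% confidence interval -0.34 to -0.12) had an adjusted p of 0.101 and did not pass (limma). Its mean was the highest of the 7 genes.

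Il18 was the 1 member with higher values in the arrays labelled IL-33, at 8.47, 8.49 and 8.74, against 7.66, 7.95 and 7.98 in those labelled PBS. The groups lay 0.48 log2 units apart. The difference was 0.70 (95% confidence interval 0.44 to 0.96), or 1.62-fold, and its adjusted p of 0.0574 missed the threshold (limma). It had an adjusted p under 0.05 in 4 of the 8 alternative settings that keep all arrays and in 0 of the 6 fits without an array, where the adjusted p was 0.101 to 0.204 (limma).

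Il33 had log2 values of 4.57, 4.63 and 4.57 in the arrays labelled IL-33 and of 4.59, 4.73 and 4.80 in those labelled PBS. It was the 1 member below the median gene mean, its groups overlapped, and its difference of -0.12 (95% confidence interval -0.27 to 0.04) had an adjusted p of 0.502 (limma). These probes read the cells' own transcript and not the IL-33 protein added to the medium.

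**Figure D2:**
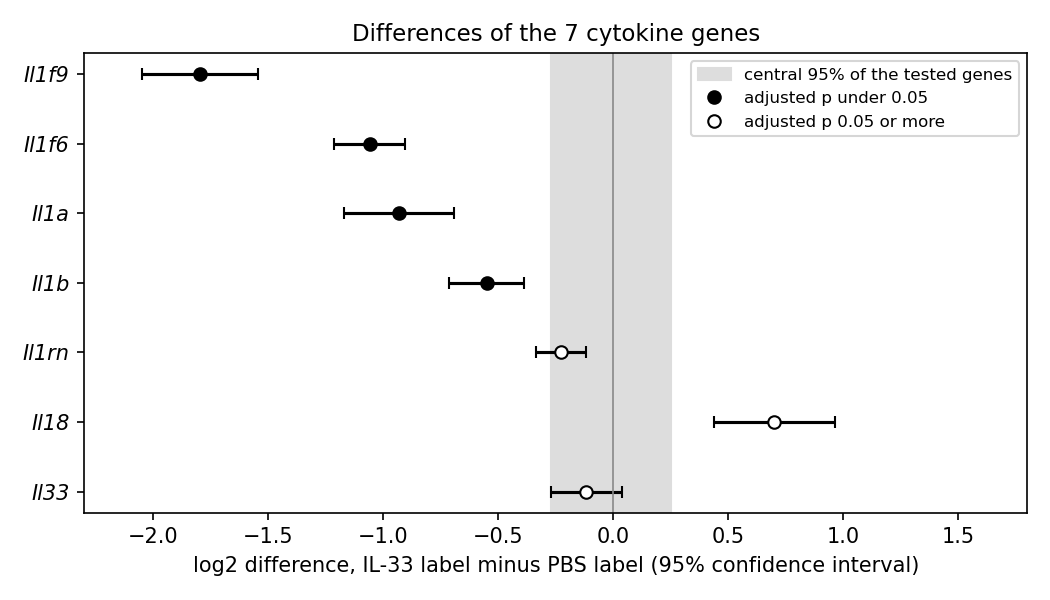
Log2 difference of each cytokine gene on the horizontal axis, arrays labelled IL-33 minus arrays labelled PBS, with its 95% confidence interval (limma, 3 arrays a group); filled points passed at an adjusted p under 0.05, and the grey band holds the central 95% of the differences of all 22180 genes (-0.27 to 0.25). Il1f9, Il1f6, Il1a, Il1b and Il18 lie outside the band, and Il1rn and Il33 inside it.

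In the order of their differences, the interval of Il1f9 did not overlap that of the next gene, Il1f6. The intervals of Il1f6 and Il1a overlapped, as did those of Il1a and Il1b, which met between -0.71 and -0.69. The interval of Il1b ended at -0.39, below the interval of Il1rn, which began at -0.34. The intervals of Il1rn and Il33 overlapped, and that of Il18 lay apart from all others. Differences between genes were not tested.

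**Figure D3:**
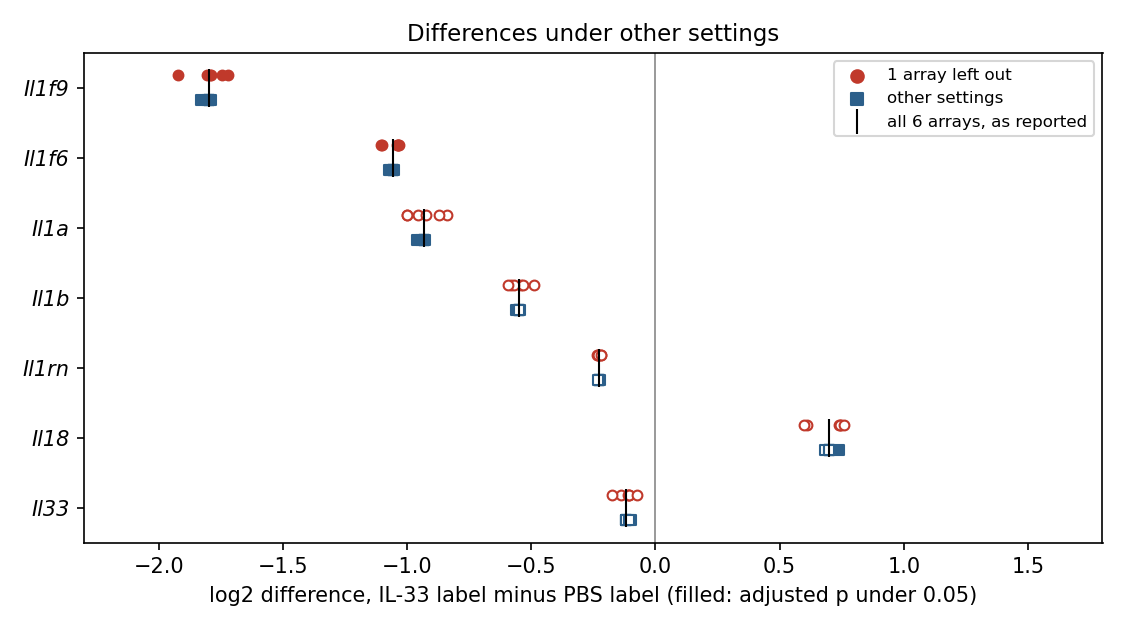
Log2 difference of each cytokine gene (horizontal axis, IL-33 label minus PBS label) with all 6 arrays as reported (black bars), with 1 array left out (circles) and under 8 other settings (squares; 7 for Il33, which 1 filter removed); filled symbols had an adjusted p under 0.05. No difference changed sign, Il1f9 ranged from -1.92 to -1.72 without an array, and Il1a and Il1b have open circles throughout.

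The 5 members on chromosome 2 lie in 2 places, with Il1f9, Il1f6 and Il1rn in one and Il1a and Il1b side by side in the other. In the gene order of the RefSeq table, the 3 nearest protein-coding genes on either side of each gave 14 genes that are no members. All 14 were measured and 0 passed (1 at an unadjusted p under 0.05), where 0.591% of all genes passed. The log2 differences of the 14 lay between -0.18 and 0.21, with the lowest adjusted p at 0.329 (limma). Among them are the remaining genes of the family. Il1f8, which encodes IL-36 beta and adjoins Il1f9, differed by 0.02, and Il1f5, the IL-36 receptor antagonist next to Il1f6, by 0.05. Il1f10, which encodes IL-38, differed by -0.18 (adjusted p = 0.329, limma). These 3 genes had group means of 3.33 to 5.10, below the median gene mean. The neighbours Hnmt, Tbpl2, Psd4, Pax8 and Pdyn lay below it too. Ckap2l, a mitotic spindle protein gene next to Il1a, differed by 0.21, and Sirpa, the receptor for CD47, by -0.09.

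**Figure D4:**
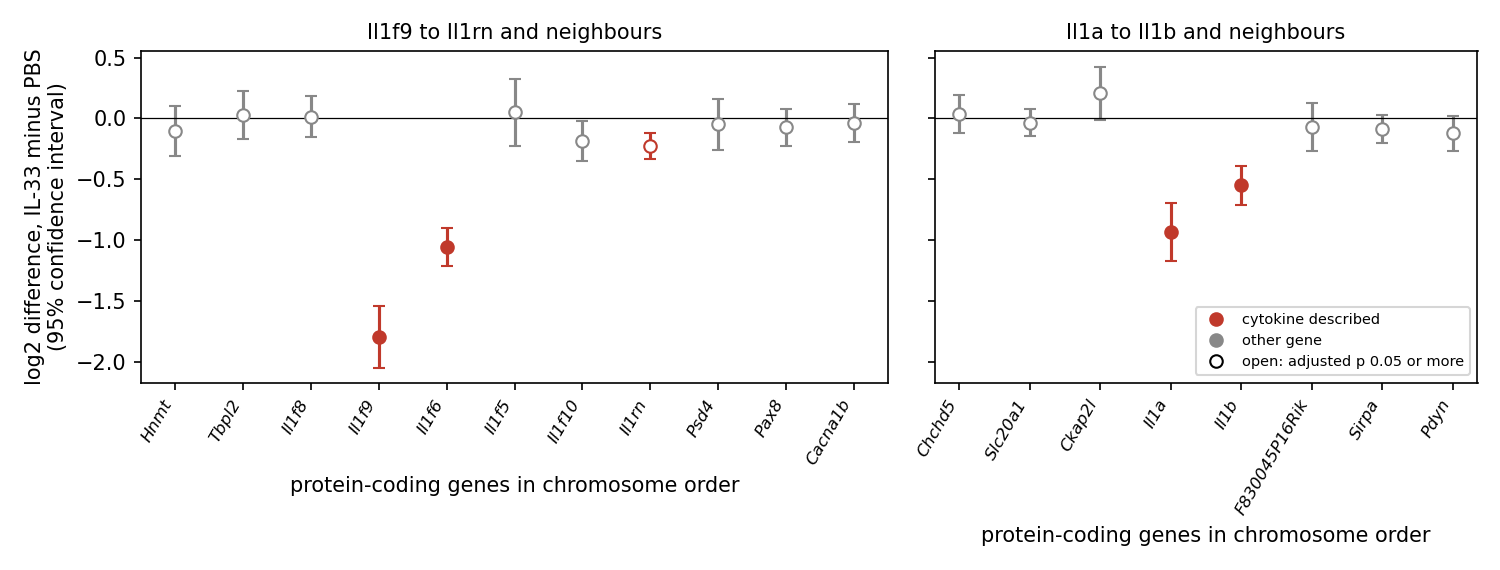
Log2 difference (vertical axis, IL-33 label minus PBS label, 95% confidence interval) of protein-coding genes in their order on chromosome 2 (horizontal axis), from 3 genes before to 3 genes after each block of cytokines; red marks the cytokines described and filled points an adjusted p under 0.05. Il1f9, Il1f6, Il1a and Il1b stand below their neighbours, all of which lie between -0.18 and 0.21 apart from Il1rn at -0.23.

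Of 83 measured genes on 6 lists of the wider pathway, 1 rose, 1 fell and 81 did not pass (limma). The share called was 2.41%, against 0.591% of all genes. An unadjusted p under 0.05 was found for 20 of the 83, and for 13.2% of all genes. The median log2 difference of the 83 was -0.0023. All 3 values labelled IL-33 lay below those labelled PBS in 16.9% of the 83 and above in 16.9%, against 10.1% and 10.3% of all genes. Most of 4 lists lay at or above the median gene mean: 18 of 20 targets, 17 of 19 transcription factors, 13 of 14 adaptors and kinases, and 15 of 19 processing genes. Of the other ligands 0 of 3 did, and of the receptors and decoys 3 of 8. The part of level in these shares was not tested. The pathway genes that passed were both targets of IL-1 family receptors. Cxcl3, a neutrophil chemoattractant, had a log2 difference of -1.67 and Csf2, which encodes GM-CSF, of 1.16 (adjusted p = 0.00613 and 0.0160, limma). The other probe set of Csf2 differed by 0.58. The call of Csf2 was lost without IL-33 replicate 2 or 3 and without PBS replicate 1 or 3. The remaining 18 of 20 targets did not pass (limma; 6 of the 20 at an unadjusted p under 0.05), and the list had a median of -0.05. The difference was below 0 in 15 of the 20 targets, and all 3 values labelled IL-33 lay below those labelled PBS in 7 and above in 1. The NF-kB inhibitor Tnfaip3 was nearest among them, at -0.64 with an adjusted p of 0.0523, followed by the granulocyte growth factor gene Csf3 at -0.38 with 0.0593 (limma). Tnfaip3 had an adjusted p under 0.05 in 6 of the 8 alternative settings that keep all arrays and Csf3 in 5, and neither in any of the 6 fits without an array.

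Of 8 receptor and decoy genes 0 passed (limma; 2 at an unadjusted p under 0.05), with a median of 0.12, and 6 of them had a difference above 0. The smallest p belonged to Il18rap, the accessory chain of the IL-18 receptor, at 0.27 (adjusted p = 0.148), and to Il1rap, the accessory chain that IL-1, IL-36 and IL-33 share, at 0.29 (adjusted p = 0.192, limma). In both genes all 3 values labelled IL-33 lay above those labelled PBS. The 2 other probe sets of Il1rap differed by 0.23 and 0.13. The IL-36 receptor gene Il1rl2 and the IL-1 receptor gene Il1r1 had group means of 4.13 to 4.26 and 4.14 to 4.31, below the median gene mean.

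Of 19 processing and release genes 0 passed (limma; 3 at an unadjusted p under 0.05), with a median of 0.01. The membrane rupture protein gene Ninj1 differed by -0.20 (adjusted p = 0.236) and the channel gene Panx1 by -0.22 (adjusted p = 0.275, limma). Of 14 adaptors and kinases 0 passed (limma; 1 at an unadjusted p under 0.05), with a median of 0.0071. The kinase Irak2 differed by 0.19 (adjusted p = 0.170) and Ikbkb, a kinase that activates NF-kB, by -0.13 (adjusted p = 0.477, limma). Of 19 transcription factors known to act on genes of the family 0 passed (limma; 7 at an unadjusted p under 0.05), with a median of 0.03. In 7 of the 19 all 3 values labelled IL-33 lay above those labelled PBS and in 3 below, against 10.3% and 10.1% of all genes. The macrophage factor gene Irf8 differed by 0.31 (adjusted p = 0.0551) and Cebpd, of the C/EBP family, also by 0.31 (adjusted p = 0.0986, limma). The other probe set of Irf8 differed by 0.32. Irf8 had an adjusted p under 0.05 in 5 of the 8 settings that keep all arrays, and Cebpd in 2, as did Il18rap and Irak2.

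**Figure D5:**
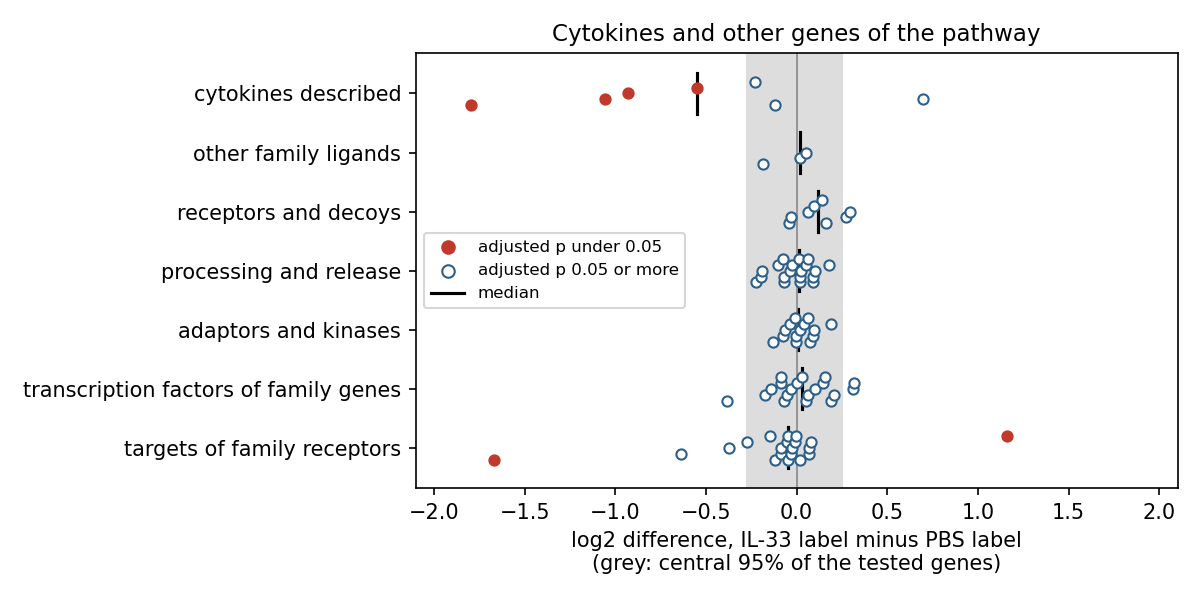
Log2 difference (horizontal axis, IL-33 label minus PBS label) of each measured gene of the cytokines described and of 6 pathway lists (rows); filled red points had an adjusted p under 0.05, black lines are list medians, and the grey band is the central 95% of all genes. The list medians run from -0.05 for the targets to 0.12 for the receptors, against -0.55 for the cytokines.

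The genes with the most similar profiles were found by the Euclidean distance between log2 values centred on each gene's mean over the 6 arrays. Compared were 10463 genes at or above the median gene mean, leaving out provisional symbols such as those with Gm, Rik or LOC. Since the difference between the groups makes up most of a profile, the distance favours genes with a difference of like size. It says nothing of shared control. A like order of the arrays and a low adjusted p follow in part from this choice of genes. For Il1f9 the nearest were Stfa3, a stefin that inhibits cysteine proteases (distance 0.55), Cxcl3 (0.58), the protease inhibitor gene Serpinb2 (0.65) and the chemokine gene Ccl6 (0.74). Stfa3 belongs to a family of near-identical copies, which probes may not tell apart. The array labelled IL-33 replicate 1 was the least lowered of its group in Il1f9, Stfa3 and Serpinb2, but not in Cxcl3 or Ccl6.

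For Il1a the nearest were the lectin receptor gene Clec4n (distance 0.11), the proton pump subunit gene Atp6v0d2 (0.29), the receptor gene Pilra (0.30) and Edn1, which encodes endothelin-1 (0.32). In Il1a and in all 4 of these, replicate 3 labelled IL-33 had the lowest value of the 6 arrays. For Il1b the nearest were Clec7a, the beta-glucan receptor gene (0.13), the neuropeptide gene Npy (0.15), the transporter gene Slc22a4 (0.16) and the oxidase gene Nox3 (0.17). In Il1b and in these 4 genes, replicate 2 had the highest value of the arrays labelled PBS. Of the 12 genes 10 had an adjusted p under 0.05, and Npy and Slc22a4 had 0.0691 and 0.101 (limma).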

How the data were processed

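Biotin-labelled cDNA was made from amplified total RNA for whole-transcript arrays, per the labels' protocols. The authors deposited 1 log2 value per probe set and array, made with RMA per the submitters' processing notes, which do not name a version or settings. Since RMA aligns the distributions of arrays, a shift of most genes would not show. No detection calls were used.

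Of 41345 probe sets, 23521 had exactly 1 gene symbol in the platform annotation. They represent 22180 genes, each by its probe set with the highest mean. The values were fitted with limma 3.58.1 in R 4.3.3 (lmFit, eBayes, 1 group coefficient, no filter), with Benjamini-Hochberg adjustment over all genes and a threshold of 0.05, and the fit was tested on simulated data. Folds are 2 to the power of the log2 difference or its inverse. The members and the lists were chosen with earlier results of these data known. Named are all members, list genes that passed or the 2 with the smallest p, neighbours, and the 4 nearest profiles of Il1f9, Il1a and Il1b. Some neighbours, markers, receptors and motif matches were named after their values were seen. The NF-kB and interferon response element letters were each shortened by 1 base after the matches to the longer letters had been seen, which made them match more windows. The longer NF-kB letters matched Il1rn but not Il18. Capn1, Irak4, Chuk, Nfkb1 and Krt5 are on the lists but had no probe set with a single symbol. The alternatives were 2 filters on dim genes, centring on the 75th percentile, another round of quantile normalization, mean of probe sets, a replicate block, array weights, a prior variance trended on intensity and robust, and leaving out each array. Figures were drawn with matplotlib 3.10.9.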

Additional observations from a re-analysis of the deposited data

How the results depend on the processing

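The log2 differences of all 7 cytokine genes kept their sign in the 6 fits without an array and in the 8 other settings (7 for Il33). Il1f9 and Il1f6 passed in all 14 and Il1a in the 8 others. Without 1 array 2 members passed in every case, and 15 to 83 genes and 1 to 2 pathway genes. Same-numbered arrays had deviations correlated at 0.082, 0.088 and 0.022, against -0.12 to 0.059 for the other combinations. Not every array correlated best with its own number. Values this small cannot settle whether replicate numbers pair the samples, so both fits are given. With the replicate block, 21 genes, 3 members and 0 pathway genes passed (20 pathway genes at an unadjusted p under 0.05), and the calls of Il1b, Cxcl3 and Csf2 were lost with adjusted p of 0.121, 0.0573 and 0.0927 (limma). Genes passing numbered 760 among those at or above the median mean value, 296 above the 25th percentile and 1000 with a trended and robust prior variance. Pathway genes numbered 9, 5 and 13 in these settings, each with Tnfaip3, Csf3 and Irf8 among them. They numbered 4 with further quantile normalization, 4 with centring on the 75th percentile and 5 with array weights, where 0.582%, 0.645% and 0.87% of all genes passed. The median filter and the prior variance setting also called Il1rn and Il18, the prior variance setting with adjusted p of 0.000297 and 0.0011 (limma) where 4.51% of all genes passed. The cause of these changes was not tested. The arrays give no background values, so a dim gene such as Il33 cannot be called absent.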
